A study of Mus musculus with 1479 samples.

Results

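The 10 genes described here encode 8 chemokines (Cxcl14, Cxcl12, Cxcl1, Cxcl10, Cxcl16, Ccl2, Ccl7 and Ccl11) and 2 cytokines (Il6 and Il33) of connective-tissue cells. They were chosen by name from the 46517 gene rows of a read count table of 1479 single cells of the mouse urinary bladder, and all 10 had reads. The cells came from C57BL6 mice without a reporter (12.8% of cells) and from the reporter lines Acta2GFP (8.72%), Cspg4dsRED (13.7%), PdgfraGFP (9.94%) and PdgfrbGFP (54.8%), where the promoter named in the line drives a fluorescent protein. All mice were males of 10 to 20 weeks with no treatment. Cells were sorted for a reporter or for PDGFRA or PDGFRB antibody, with CD31-positive endothelial cells gated out, and the study kept cells with Pdgfra or Pdgfrb reads and removed cells with immune or endothelial profiles. Each cell was made into its own Smart-seq2 library, a full-length cDNA method without molecular identifiers, in a well of one of 6 plates. The labels gave each cell a cluster from 1 to 11 that had been assigned from the same expression values, and they named no animal. Line, sort and plate coincided in part and cannot be told apart where they did. The p-values below rest on how class differences varied over lines, with variance estimates that borrow from all genes.

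Chemokines are small proteins that bind heparan sulfate in the matrix and guide leukocytes that carry the matching receptor. Stromal cells of many tissues supply them, some at all times, such as Cxcl12, the ligand of CXCR4, and some after injury or infection under the control of NF-kappaB or interferon signalling, such as Cxcl1, Ccl2 and Cxcl10. In the bladder wall, fibroblasts lie beneath the urothelium, between muscle bundles and around vessels, and mural cells (pericytes and vascular smooth muscle cells) wrap the vessels.

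Each cell's level of a gene is its reads per 500000 reads of mouse genes. A line's value is the mean over its cells where it had at least 3 of them, and class values of the 10 genes are means over lines ± SD. Summed marker levels and class levels of genes outside the 10 are means over all cells of the class. By markers, cluster 10 (8.45% of cells) was mural: the summed level of 7 mural markers, among them Rgs5, Notch3 and Myh11, was 11196 there, between 7462 and 12208 in its 4 lines, against 100.7 in the fibroblast clusters outside cluster 5. Cluster 5 (76 cells) carried the sub-epithelial fibroblast markers Tnc, Bmp5, Bmp7 and Col12a1 at a summed 1929, against 49.9 in the other fibroblast clusters, and its mural markers summed to 615. The other 9 clusters held 1278 cells with fibroblast markers (Pdgfra, Col1a1, Col1a2, Lum, Dcn). The immune markers summed to 6.62 in these cells, 4.64 in mural cells and 16.7 in cluster 5, and 9.80% of all cells held a read of Ptprc, Tyrobp or Laptm5. Endothelial markers summed to 17.4, 37.5 and 23.4 in the same order, urothelial markers to 6.08, 7.42 and 20.99 and glial markers to 0.755, 7.58 and 0.044, and fibroblast markers summed to 828.9 in mural cells. Libraries held 50276 to 1446059 reads (median 214893), and the median number of mouse gene reads was 128369 in mural cells, 256725 in cluster 5 and 220724 in the other clusters.

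The reference promoters of these genes are shown first, because some of the genes are known as constitutive and others as induced by NF-kappaB or interferon, and the windows can be read for the matching motifs. The RefSeq promoter table for GRCm38.p6 matched 6 of the 10 genes with 7 windows, and it had no entry for Cxcl16, Ccl2, Ccl7 and Ccl11. Each line below gives the 250 bases before the annotated start, 5′ to 3′ on the gene's own strand, and capitals mark every motif match.
Cxcl12 promoter, chr6:117168285-117168534, plus strand: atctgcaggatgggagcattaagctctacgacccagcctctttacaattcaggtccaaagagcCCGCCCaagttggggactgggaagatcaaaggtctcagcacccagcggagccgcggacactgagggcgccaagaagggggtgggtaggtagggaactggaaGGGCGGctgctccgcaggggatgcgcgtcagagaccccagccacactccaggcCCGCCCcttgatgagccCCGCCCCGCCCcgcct
Cxcl14 promoter, chr13:56296552-56296801, minus strand: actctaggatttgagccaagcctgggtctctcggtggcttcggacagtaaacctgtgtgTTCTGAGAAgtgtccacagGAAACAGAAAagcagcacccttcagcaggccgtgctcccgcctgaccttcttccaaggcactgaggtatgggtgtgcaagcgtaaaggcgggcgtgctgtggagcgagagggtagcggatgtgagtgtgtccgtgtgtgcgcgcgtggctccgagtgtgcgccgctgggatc
Il33 promoter of the downstream start, chr19:29945540-29945789, plus strand: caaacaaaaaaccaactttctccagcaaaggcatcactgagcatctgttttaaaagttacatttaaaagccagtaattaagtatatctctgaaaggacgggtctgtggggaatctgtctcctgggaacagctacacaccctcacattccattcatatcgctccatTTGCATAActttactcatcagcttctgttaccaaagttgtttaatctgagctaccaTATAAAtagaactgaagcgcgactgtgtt
Cxcl1 promoter, chr5:90890995-90891244, plus strand: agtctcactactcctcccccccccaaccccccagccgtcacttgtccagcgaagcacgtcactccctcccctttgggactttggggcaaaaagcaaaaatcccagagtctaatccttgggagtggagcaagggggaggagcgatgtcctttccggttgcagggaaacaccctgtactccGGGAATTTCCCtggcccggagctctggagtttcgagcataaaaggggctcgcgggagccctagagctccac
Cxcl10 promoter, chr5:92348890-92349139, minus strand: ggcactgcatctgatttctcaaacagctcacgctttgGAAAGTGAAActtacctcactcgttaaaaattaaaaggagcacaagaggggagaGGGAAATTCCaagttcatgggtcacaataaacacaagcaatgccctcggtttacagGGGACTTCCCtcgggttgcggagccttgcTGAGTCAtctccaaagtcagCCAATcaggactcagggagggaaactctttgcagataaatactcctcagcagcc
Il6 promoter, chr5:30012864-30013113, plus strand: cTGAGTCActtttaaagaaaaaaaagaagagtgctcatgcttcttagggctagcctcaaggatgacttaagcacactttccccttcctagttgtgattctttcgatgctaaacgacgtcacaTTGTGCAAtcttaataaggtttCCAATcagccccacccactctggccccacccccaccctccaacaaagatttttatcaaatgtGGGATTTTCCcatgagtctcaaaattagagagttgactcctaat

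The motifs searched on both strands were the TATA box (TATAAA), the CCAAT box (CCAAT), the GC box (GGGCGG), AP-1 (TGA, any base, TCA), the cyclic AMP response element, C/EBP (TTGC, any 2 bases, AA), STAT (TTC and GAA with 3 bases between), NF-kappaB and the interferon-stimulated response element. The Cxcl12 window was 64.4% G and C with 14 CpG dinucleotides and held 5 GC-box matches, the last pair of them overlapping at bases 16 to 6 before the start. The Cxcl14 window was 59.6% G and C with 16 CpG and held a STAT match and an interferon-element match. Across all 32851 promoters of this length the median was 52.4% G and C with 6 CpG. The Il6 window (42.8%, 3 CpG) held AP-1, C/EBP, CCAAT and NF-kappaB matches, and the Cxcl10 window (48%, 5 CpG) held AP-1, CCAAT, the interferon element and 2 NF-kappaB matches. The Cxcl1 window (59.2%, 10 CpG) held 2 overlapping NF-kappaB matches at bases 71 to 61 before the start. The downstream Il33 window (39.6%, 4 CpG) held a TATA box at bases 29 to 24 and a C/EBP match, and the window of the upstream Il33 start, chr19:29924863-29925112, held a TATA box and a CCAAT box. An NF-kappaB match was thus present in the windows of Cxcl1, Cxcl10 and Il6 and in none of the windows of Cxcl12, Cxcl14 and Il33. Of all promoters, 3.9% held an NF-kappaB match, 2.98% the interferon element, 7.02% STAT, 9.56% C/EBP, 6.75% AP-1, 32.7% a GC box, 33.8% a CCAAT box and 12.4% a TATA box. The cyclic AMP response element, present in 1.55% of promoters, had no match in the 7 windows. These matches describe the sequence and are not binding sites measured in these cells.

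The 10 genes differed widely in how many cells held them. Cxcl12 (ENSMUSG00000061353, chr6:117168535-117181367, plus strand) had a read in 96.6% of cells and a mean level of 729 over all cells, which is 89.1 per kilobase of exon. Ccl11 (ENSMUSG00000020676, chr11:82057823-82062955, plus strand), which encodes eotaxin, the attractant of eosinophils, had 62.99 per kilobase and reads in 61.3% of cells. Cxcl14 (ENSMUSG00000021508, chr13:56288643-56296551, minus strand), a chemokine of epithelia and stroma, had 62.1 per kilobase and reads in 65.9%. On the scale per kilobase of exon these 3 genes had the highest mean levels of the 10.

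Il33 (ENSMUSG00000024810, chr19:29925114-29960718, plus strand), a nuclear cytokine released on cell damage, followed with a mean level of 41.2 per kilobase and reads in 73.8% of cells. Cxcl16 (ENSMUSG00000018920, chr11:70453983-70459984, minus strand), a membrane-anchored chemokine and the ligand of CXCR6, had 18.2 per kilobase and reads in 65.04%. Cxcl16 overlaps Zmynd15 on the other strand, and 16.9% of the 50-base stretches of its exons are shared with it, so its counts may include reads of both genes. The 5 remaining genes had mean levels of at most 8.04 per kilobase.

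Cxcl1 (ENSMUSG00000029380, chr5:90891241-90893115, plus strand), a neutrophil attractant, had reads in 26.2% of cells and a mean level of 8.04 per kilobase. Il6 (ENSMUSG00000025746, chr5:30013114-30019981, plus strand), an inflammatory cytokine that signals through IL6ST, had reads in 12.4% of cells and 2.05 per kilobase. The monocyte attractants Ccl2 (ENSMUSG00000035385, chr11:82035571-82037453) and Ccl7 (ENSMUSG00000035373, chr11:82045712-82047525), both on the plus strand next to Ccl11, had reads in 8.72% and 6.22% of cells. Cxcl10 (ENSMUSG00000034855, chr5:92346638-92348889, minus strand), an interferon-induced attractant of T cells, had reads in only 27 cells (1.83%). Ccl2 overlaps Gm17268 and Cxcl10 overlaps Art3 on the other strand, with 3.59% of the 50-base stretches of Cxcl10 shared.

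The rarely read genes were also the ones whose reads sat in few cells. The 10 highest cells held 96.1% of the summed level of Cxcl10, 85.9% of Ccl2, 72.5% of Ccl7, 58.5% of Il6 and 38.9% of Cxcl1. The same number of cells held 14.97% for Cxcl14, 11.6% for Ccl11, 10.5% for Cxcl16, 6.61% for Il33 and 3.55% for Cxcl12. Single cells nevertheless reached high levels of the rare genes, with 1996 for Cxcl1, 1599 for Il6, 945 for Ccl2 and 663 for Ccl7, against 4515 for Cxcl12 and 3279 for Cxcl14. In the highest cell of Cxcl14 the reads came to 0.860 per exon base, in that of Ccl11 to 0.820 and in that of Il33 to 0.806. According to the methods, reads described as doublets were removed before counting, and whether this capped the counts of these cells was not tested.

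**Figure D1:**
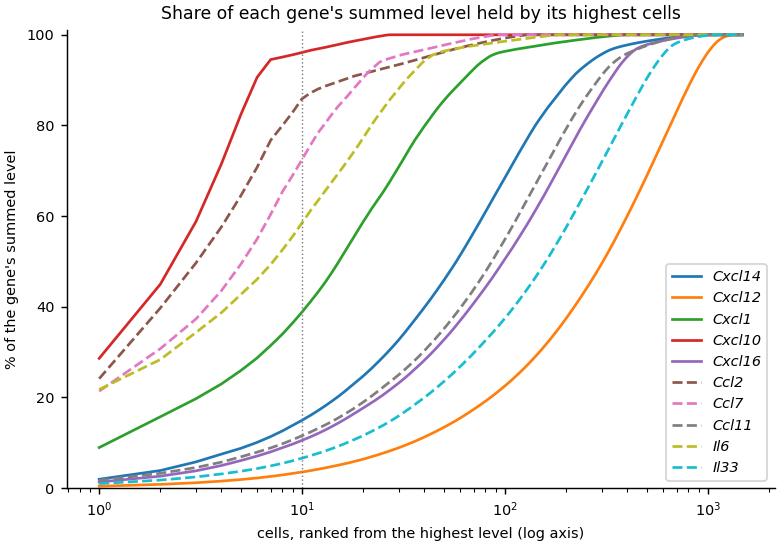
Cumulative percent of each gene's summed level (vertical axis) against the number of cells ranked from the highest level (horizontal log axis), with a dotted line at 10 cells and 1 line per gene. The 10 highest cells held 96.1% for Cxcl10 and 3.55% for Cxcl12.

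Of the genes read broadly, Cxcl14 stood apart by cluster. In cluster 5 its mean level was 853 in PdgfrbGFP, 1259 in PdgfraGFP, 362 in Cspg4dsRED and 624.8 in C57BL6 (mean 775 ± 380.2, SD, n = 4 lines), with 3 cells behind the Cspg4dsRED value. The other 9 fibroblast clusters stood at 73.8 in PdgfrbGFP, 113.2 in PdgfraGFP, 116.5 in Cspg4dsRED, 67.1 in C57BL6 and 29.05 in Acta2GFP (79.9 ± 36.2, n = 5). Mural cells had 5.81 in PdgfrbGFP, 0.577 in Cspg4dsRED, 4.02 in C57BL6 and 0.296 in Acta2GFP (2.67 ± 2.69, n = 4). The 3 ranges over lines did not overlap, with cluster 5 highest and mural cells lowest in each line that had them. Taken singly, however, cluster 8 stood at 483 in 14 Cspg4dsRED cells, above the cluster 5 value of that line, and cluster 3 at 584 in 13 PdgfraGFP cells, within the range of the cluster 5 lines.

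Counts were summed per line and class and tested over lines with the line as a block. A gene was called when its adjusted p (Benjamini-Hochberg) was below 0.05 and it was at least 2 away from 0 on the log2 scale. Because the clusters were made from the same expression values, a call says how well a difference repeated over lines and is no independent evidence for the cluster. Cxcl14 was higher in cluster 5 than in the other fibroblasts by 3.00 on the log2 scale (SE 0.35, adjusted p = 0.00123, edgeR quasi-likelihood test), in 4 of 4 lines. In mural cells against all fibroblasts it was lower, with a log2 fold change of -5.87 (SE 1.11, adjusted p = 0.00225, edgeR), in 4 of 4 lines.

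To compare cells at equal depth, reads of each were drawn at random down to 50000, and 6 cells below that depth were dropped. At least 10 Cxcl14 reads were then present in 72 of 76 cluster 5 cells (94.7%, exact 95% interval 87.1 to 98.5%), in 14.8% of 1272 other fibroblasts (12.9 to 16.9%) and in 0 mural cells, with an upper bound of 2.91%. These intervals cover counting error only. Among the other fibroblast clusters the share ran from 5.71% in cluster 1 to 20.4% in cluster 3, so high Cxcl14 was not limited to cluster 5. Of the 10 cells with the highest Cxcl14, 6 were in cluster 5.

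Cxcl12 had the opposite order between these fibroblast classes. Its level in the other fibroblasts was 914 in PdgfrbGFP, 769 in PdgfraGFP, 676 in Cspg4dsRED, 518 in C57BL6 and 940.2 in Acta2GFP (763 ± 174.5, n = 5). Cluster 5 had 253.5 in PdgfrbGFP, 161.1 in PdgfraGFP, 247.5 in Cspg4dsRED and 168.6 in C57BL6 (207.7 ± 49.6, n = 4). Mural values were 87.6 in PdgfrbGFP, 65.2 in Cspg4dsRED, 182.1 in C57BL6 and 31.2 in Acta2GFP (91.6 ± 64.7, n = 4). The other fibroblasts were above both classes in every line, while the ranges of cluster 5 and mural cells overlapped.

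In cluster 5 Cxcl12 had a log2 fold change of -1.93 against the other fibroblasts (SE 0.24, adjusted p = 0.00179, edgeR), lower in 4 of 4 lines but just short of the fold threshold of 2. It passed that threshold without a filter on low counts (-2.03) and with thinned cells (-2.10). In mural cells it was called lower at -3.27 (SE 0.52, adjusted p = 0.000393, edgeR), in 4 of 4 lines. After thinning, 87.1% of the other fibroblasts, 60.5% of cluster 5 (46 of 76 cells) and 19.2% of mural cells (24 cells) had at least 10 Cxcl12 reads.

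Within the fibroblast clusters other than 5, Cxcl12 was the only one of the 10 genes called by edgeR in a cluster, at a log2 fold threshold of 1. It was called in cluster 7, where 0.407% of genes tested were called (0.297% lower), and in cluster 4, where 0.746% were called (0.388% lower). At an unadjusted p under 0.05, 7 of the 10 genes passed in cluster 7 (10.2% of all genes tested) and 3 in cluster 4 (3.75%). DESeq2 called 5 of the 10 genes in cluster 7. The mean level of Cxcl12 was 1183 ± 424 (n = 5) in cluster 6, 980.3 ± 150.2 (n = 4) in cluster 3 and 942 ± 217.9 (n = 4) in cluster 1, and the steps between these clusters lay within the combined SD. In C57BL6 and PdgfrbGFP cluster 6 was below clusters 1 and 3, and its values in Acta2GFP and Cspg4dsRED rested on 6 and 3 cells. Cluster 7 had 515 in PdgfrbGFP, 376 in PdgfraGFP, 379 in Cspg4dsRED, 195.9 in C57BL6 and 377 in Acta2GFP (368 ± 113.3, n = 5), lower than in the other clusters in 5 of 5 lines (log2 fold change -1.19, SE 0.15, adjusted p = 0.0152, edgeR). In cluster 4 (23 cells) Cxcl12 was 28.1 in 17 Cspg4dsRED cells and 200.2 in 4 PdgfrbGFP cells, lower in both lines (log2 fold change -3.70, SE 0.60, adjusted p = 4.06e-07, edgeR). With only these lines, that p leans on variance estimates shared over genes.

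The cluster 7 call was lost without the line block (adjusted p = 0.097) and without Acta2GFP (0.062), C57BL6 (0.085), PdgfraGFP (0.082) or PdgfrbGFP (0.064), with log2 fold changes between -1.10 and -1.26 in these fits. The cluster 4 call was lost with DESeq2 (adjusted p = 0.187) and without the block (0.314).

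Il33 was present in the other fibroblasts and nearly absent from cluster 5 and mural cells. The other fibroblasts had 157.2 in PdgfrbGFP, 108.5 in PdgfraGFP, 97.6 in Cspg4dsRED, 97.9 in C57BL6 and 146.1 in Acta2GFP (121.5 ± 28.2, n = 5). In cluster 5 it was 9.95 in PdgfrbGFP, 0.397 in PdgfraGFP, 0 in Cspg4dsRED and 2.20 in C57BL6 (3.14 ± 4.64, n = 4). In mural cells it was 8.42 in PdgfrbGFP, 0.224 in Cspg4dsRED, 1.004 in C57BL6 and 1.77 in Acta2GFP (2.85 ± 3.76, n = 4). The lowest line of the other fibroblasts lay well above the highest line of either class, and the classes of low Il33 overlapped each other.

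Il33 was called lower in mural cells (log2 fold change -6.56, SE 1.09, adjusted p = 0.0006, edgeR) and lower in cluster 5 (-6.47, SE 1.04, adjusted p = 0.011, edgeR), each in 4 of 4 lines. Without the cells that held immune reads, the cluster 5 value was -5.91 with adjusted p = 0.057. At least 10 reads after thinning were found in 532 of 1272 other fibroblasts (41.8%), in 1 of 76 cluster 5 cells (1.32%, exact 95% interval 0.0333 to 7.11%) and in 0 mural cells. Among the fibroblast clusters, cluster 2 (266.98 ± 239.1, n = 5) and cluster 1 (234.3 ± 71.95, n = 4) had the highest mean levels and cluster 11 (49.1 ± 43.01, n = 3) the lowest outside cluster 5. Only the step from cluster 11 to cluster 5 exceeded the combined SD of neighbours in this order, and edgeR called Il33 in no cluster other than 5 and 10.

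Ccl11 followed Il33 in cluster 5 but not in mural cells. Outside cluster 5, fibroblasts had 97.5 in PdgfrbGFP, 72.7 in PdgfraGFP, 50.8 in Cspg4dsRED, 33.6 in C57BL6 and 44.5 in Acta2GFP (59.8 ± 25.4, n = 5). In cluster 5 it was 6.19 in PdgfrbGFP, 0.713 in PdgfraGFP, 0 in Cspg4dsRED and 1.04 in C57BL6 (1.99 ± 2.84, n = 4). In mural cells it was 10.3 in PdgfrbGFP, 5.40 in Cspg4dsRED, 579 in C57BL6 and 0.138 in Acta2GFP (148.6 ± 286.7, n = 4). Cluster 5 lay below the other fibroblasts in every line, and so did mural cells except in C57BL6.

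In cluster 5 Ccl11 was called lower (log2 fold change -5.89, SE 1.10, adjusted p = 0.0283, edgeR, 4 of 4 lines). That call was lost without PdgfraGFP (adjusted p = 0.206), without PdgfrbGFP (0.058) and with the median gene set to 0 (0.072), at log2 fold changes of -5.38, -6.78 and -5.17. In mural cells it was not called (-2.54, SE 1.35, adjusted p = 0.29, edgeR, lower in 3 of 4 lines), and the direction turned to 1.65 without the line block (adjusted p = 0.565). Without the cells that held immune reads, in a fit that had no C57BL6 line, it was called at -5.49 (adjusted p = 0.019). The high C57BL6 value rested on 1 of the 3 mural cells of that line, which held 663 Ccl11 reads, a level of 1736, together with a Cxcl1 level of 474 and an Il6 level of 319.4, while the other 2 cells held no read of the 3 genes. That cell had a summed level of 3268 for the fibroblast markers and 6483 for the mural markers, against 2171 and 6376 in the second cell and 355 and 9528 in the third. Whether the first cell's library held RNA of 2 cells was not tested. The C57BL6 mural cells also had the highest summed mesothelial markers of the mural lines (61.4). Which of the 3 cells held these reads was not examined. Without the C57BL6 line the mural value of Ccl11 was -3.77 (adjusted p = 0.063).

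Among the fibroblast clusters Ccl11 had its highest well-filled mean in cluster 6, with 217.2 in PdgfrbGFP, 146.5 in PdgfraGFP, 438 in Cspg4dsRED, 103.9 in C57BL6 and 35.5 in Acta2GFP (188.2 ± 154.4, n = 5), where 3 cells gave the Cspg4dsRED value. Cluster 4 had 585 in PdgfrbGFP and 83.9 in Cspg4dsRED. After thinning, 88 cells of cluster 6 (47.1%, exact 95% interval 39.7 to 54.5%) had at least 10 Ccl11 reads, against 20.9% of all fibroblasts outside cluster 5 and 6.58% of cluster 7. Neither cluster was called for Ccl11 by edgeR, and no step between neighbours in the order of clusters exceeded the combined SD.

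As a mean over lines, Cxcl16 was highest in cluster 5 and near 0 in mural cells. Its level in cluster 5 was 105.4 in PdgfrbGFP, 149.3 in PdgfraGFP, 183.9 in Cspg4dsRED and 139.8 in C57BL6 (144.6 ± 32.3, n = 4). In the other fibroblasts it was 53.6 in PdgfrbGFP, 47.2 in PdgfraGFP, 116.1 in Cspg4dsRED, 46.2 in C57BL6 and 21.1 in Acta2GFP (56.9 ± 35.4, n = 5). Mural cells held 2.32 in PdgfrbGFP, 3.65 in Cspg4dsRED, 1.004 in C57BL6 and 0.747 in Acta2GFP (1.93 ± 1.34, n = 4). Mural cells lay below all fibroblasts, whereas the ranges of cluster 5 and the other fibroblasts overlapped at the Cspg4dsRED value.

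In mural cells Cxcl16 was called lower (log2 fold change -4.97, SE 1.10, adjusted p = 0.00811, edgeR, 4 of 4 lines), a call that was lost without Cspg4dsRED (adjusted p = 0.132) and without PdgfrbGFP (0.066) at log2 fold changes of -5.02 and -5.12. In cluster 5 it was higher in 4 of 4 lines by 0.99 on the log2 scale (SE 0.48), which did not pass the test (adjusted p = 0.424, edgeR). At least 10 reads after thinning were present in 34 of 76 cluster 5 cells (44.7%), in 19.1% of the other fibroblasts and in 0 mural cells. Cluster 4 was at 3.97 ± 0.424 (n = 2), close to the mural level, and 0 of its 21 thinned cells had 10 reads, with an upper bound of 16.1%.

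**Figure D2:**
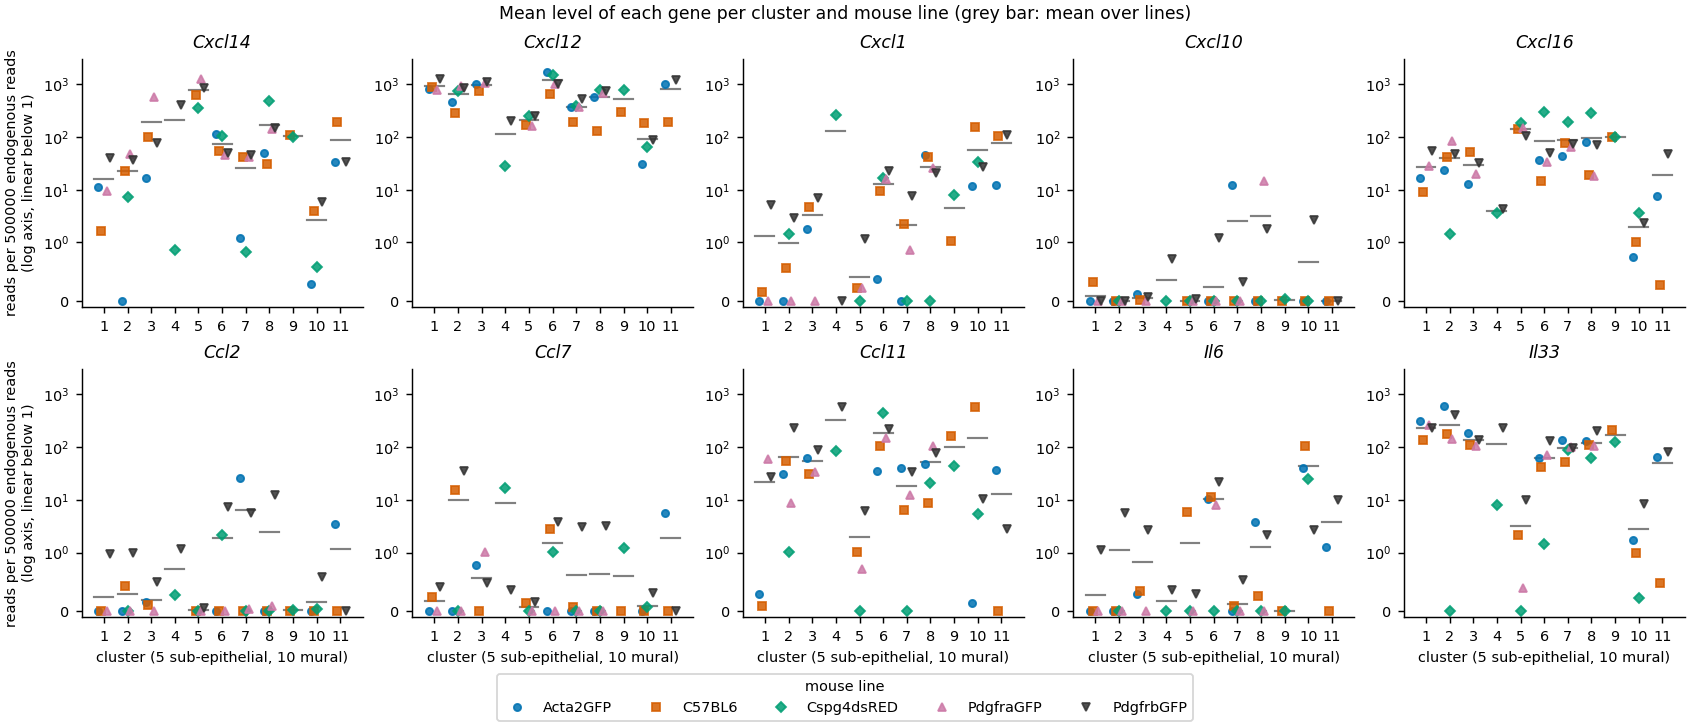
Mean level per cluster and mouse line for each of the 10 genes, as reads per 500000 endogenous reads on an axis that is logarithmic above 1, against the cluster number, with symbols for lines and grey bars for the mean over lines. As means over lines, Cxcl14 and Cxcl16 were highest in cluster 5 (775 and 144.6), while Il33 was at 3.14 there and at 2.85 in cluster 10.

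The rarely read genes were not called in either class by edgeR at the main settings. Cxcl1 in mural cells was 26.5 in PdgfrbGFP, 34.2 in Cspg4dsRED, 157.96 in C57BL6 and 11.6 in Acta2GFP (57.6 ± 67.6, n = 4). In the other fibroblasts it was 12.6 in PdgfrbGFP, 7.83 in PdgfraGFP, 38.9 in Cspg4dsRED, 9.76 in C57BL6 and 9.53 in Acta2GFP (15.7 ± 13.1, n = 5). In cluster 5 it was 1.18 in PdgfrbGFP, 0.218 in PdgfraGFP, 0 in Cspg4dsRED and 0.225 in C57BL6 (0.405 ± 0.525, n = 4). Mural cells and other fibroblasts overlapped, and cluster 5 lay below both.

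The Cxcl1 difference of mural cells was 0.81 on the log2 scale (SE 1.15, adjusted p = 0.776, edgeR, higher in 2 of 4 lines) and it turned to -0.11 without C57BL6 and to -0.035 without the cells that held immune reads. In cluster 5 the log2 fold change was -5.35 (SE 1.46, adjusted p = 0.157, edgeR, lower in 4 of 4 lines), and this was called with sums per plate and line (-4.49, adjusted p = 0.047), with DESeq2 and without the line block (adjusted p = 0.038). After thinning, at least 10 Cxcl1 reads were found in 8 mural cells (6.4%), in 0 of 76 cluster 5 cells and in 44 of 1272 other fibroblasts (3.46%). Of the 10 cells with the highest Cxcl1, 4 were among the 23 cells of cluster 4, 3 in cluster 8 and 2 mural. The cluster 4 mean was 265.3 in Cspg4dsRED and 0 in the 4 PdgfrbGFP cells. In cluster 11 Cxcl1 was higher than in the other fibroblast clusters in 3 of 3 lines without overlap. It was not called there (log2 fold change 3.43, SE 0.84, adjusted p = 0.060, edgeR).

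Il6 had a mural level of 2.72 in PdgfrbGFP, 24.6 in Cspg4dsRED, 106.5 in C57BL6 and 40.4 in Acta2GFP (43.6 ± 44.7, n = 4). In the other fibroblasts it was 5.57 in PdgfrbGFP, 1.91 in PdgfraGFP, 0 in Cspg4dsRED, 1.45 in C57BL6 and 1.46 in Acta2GFP (2.08 ± 2.08, n = 5). In cluster 5 it was 5.85 in C57BL6, 0.293 in PdgfrbGFP and 0 in the other 2 lines. Mural cells were higher in 3 of 4 lines and lower in PdgfrbGFP.

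The mural difference of Il6 was 5.21 on the log2 scale (SE 1.95, adjusted p = 0.109, edgeR). It was called with DESeq2 (5.86), with median-of-ratios scaling (5.80, adjusted p = 0.032), without the line block (4.50, adjusted p = 0.046) and without PdgfrbGFP (6.66, adjusted p = 0.015), and it was 3.00 with sums per plate and line (adjusted p = 0.35). Only 4 mural cells (3.2%, exact 95% interval 0.879 to 7.99%) had at least 10 reads after thinning, so these line means rested on few cells. In cluster 6 that number was 12 (6.42%, 3.36 to 10.9%), against 15 of 1272 in all fibroblasts outside cluster 5, and the cluster 6 level was 21.98 in PdgfrbGFP, 7.94 in PdgfraGFP, 0 in Cspg4dsRED, 11.4 in C57BL6 and 10.4 in Acta2GFP (10.4 ± 7.90, n = 5). Of the 10 highest Il6 cells, 6 were in cluster 6 and 3 were mural, and edgeR did not call Il6 in cluster 6.

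Ccl2, Ccl7 and Cxcl10 reached 10 reads in few cells. Ccl2 in the other fibroblasts was 3.32 in Acta2GFP, 4.76 in PdgfrbGFP and at most 0.0982 in the other 3 lines, with 9 of 1272 thinned cells at 10 reads or more. Ccl7 was 2.92 in PdgfrbGFP, 0.107 in PdgfraGFP, 2.94 in Cspg4dsRED, 1.52 in C57BL6 and 2.35 in Acta2GFP, with 10 of 1272 cells at 10 reads or more. Cxcl10 was 2.19 in PdgfraGFP, 0.984 in Acta2GFP and 0.601 in PdgfrbGFP, with 5 of 1272 cells at 10 reads or more.

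In mural cells and cluster 5 together, only 1 cell, a mural one, had at least 10 reads of any of these 3 genes after thinning, and that was Cxcl10. Ccl7 was lower in mural cells in 4 of 4 lines without overlap in those lines (log2 fold change -4.60, SE 1.62, adjusted p = 0.0887, edgeR) and was called with DESeq2 (adjusted p = 0.020), with sums per plate and line (0.026) and without the block (0.025). Ccl2 (-2.99, adjusted p = 0.384, edgeR) and Cxcl10 (-0.93, adjusted p = 0.859, edgeR) were not called there, and Cxcl10 turned to 0.26 with DESeq2 and to 0.70 without Acta2GFP. In cluster 5, Ccl7 (4 reads) and Cxcl10 (1 read) were not called by edgeR, and Ccl2 (2 reads) had too few reads to enter the test.

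**Figure D3:**
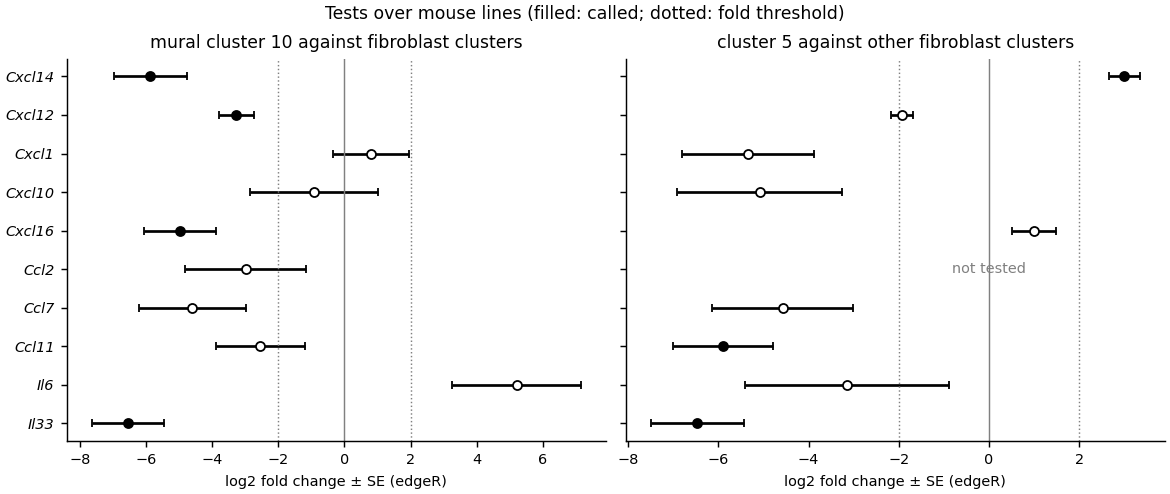
Log2 fold changes with SE from edgeR for each gene in mural cluster 10 against fibroblasts and in cluster 5 against the other fibroblasts, with filled points for called genes and dotted lines at the fold threshold of 2. In mural cells the 4 called genes lay at the lower side (from -3.27 to -6.56). Uncalled Ccl7, Ccl2 and Ccl11 lay there too (-4.60, -2.99 and -2.54), and uncalled Il6 lay at 5.21. In cluster 5 the called genes were Cxcl14 at 3.00, Il33 at -6.47 and Ccl11 at -5.89.

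Over the whole set, 4 of 10 genes were called lower in mural cells and 0 higher, where 6.2% of the 16092 genes tested were called, 2.17% higher and 4.02% lower. The median log2 fold change of the 10 was -3.13, against -0.93 over all genes tested. In cluster 5, 1 of the 9 genes tested was called higher and 2 lower, where 0.762% of 16145 genes were called, 0.297% higher and 0.465% lower, and the medians were -4.57 for the 9 and -0.77 for all genes. With the median gene set to 0, 4 of the 10 genes were still called in mural cells (Cxcl12 at -2.34) and 2 in cluster 5. None of the 10 genes was called by edgeR in clusters 1, 2, 3, 6, 8, 9 and 11, where 0.0433%, 0.00647%, 0.00608%, 0.0246%, 0.0183%, 0.0454% and 0.0209% of genes were called, so these comparisons called few genes of any kind. At an unadjusted p under 0.05, 8, 3, 4, 4, 1, 0 and 4 of the 10 genes (7 could be tested in cluster 9) passed in these clusters, where 9.26%, 23.3%, 6.11%, 9.01%, 8.92%, 1.29% and 5.35% of all genes tested passed, and DESeq2 called 2 in cluster 1, 1 in cluster 2 and 1 in cluster 6.

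Levels also differed between plates and lines within the fibroblasts. Cxcl14 over all fibroblasts was 284.7 in PdgfraGFP on plate 689s, against 29.05 in Acta2GFP on plate 515s and between 85.9 and 148.4 in the other 6 combinations of plate and line. Cluster 5 made up 14.97% of the PdgfraGFP cells. In fibroblasts outside cluster 5 the value was 113.2 in PdgfraGFP of plate 689s, next to 115.3 in 9 Cspg4dsRED cells of the same plate and 116.6 in Cspg4dsRED of plate 352s, and the other combinations lay between 29.05 and 83.1.

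Plate 515s held 2 lines and allowed a comparison within a plate. Cxcl14 was 29.05 in its Acta2GFP and 108.7 in its PdgfrbGFP fibroblasts, but within cluster 3 the values were 17.02 and 13.98. Cxcl16 was 21.1 and 56.3 in the same pair. Each combination is 1 sample, and no test was made.

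Cxcl12 and Il33 varied less between combinations. Cxcl12 lay between 490 in C57BL6 on plate 443s and 1019 in PdgfrbGFP on plate 515s, with 3 PdgfrbGFP plates at 706, 940.0 and 1019 (888 ± 162.6, SD, n = 3 plates). Il33 lay between 49.6 in the 10 Cspg4dsRED fibroblasts of plate 689s and 172.7 in PdgfrbGFP on plate 881s. Ccl11 was 114.9 and 93.1 in PdgfrbGFP on plates 074s and 881s and 44.97 in the same line on plate 515s. Cxcl16 was highest in Cspg4dsRED on both of its plates (119.5 and 92.99) and between 21.1 and 62.5 elsewhere.

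**Figure D4:**
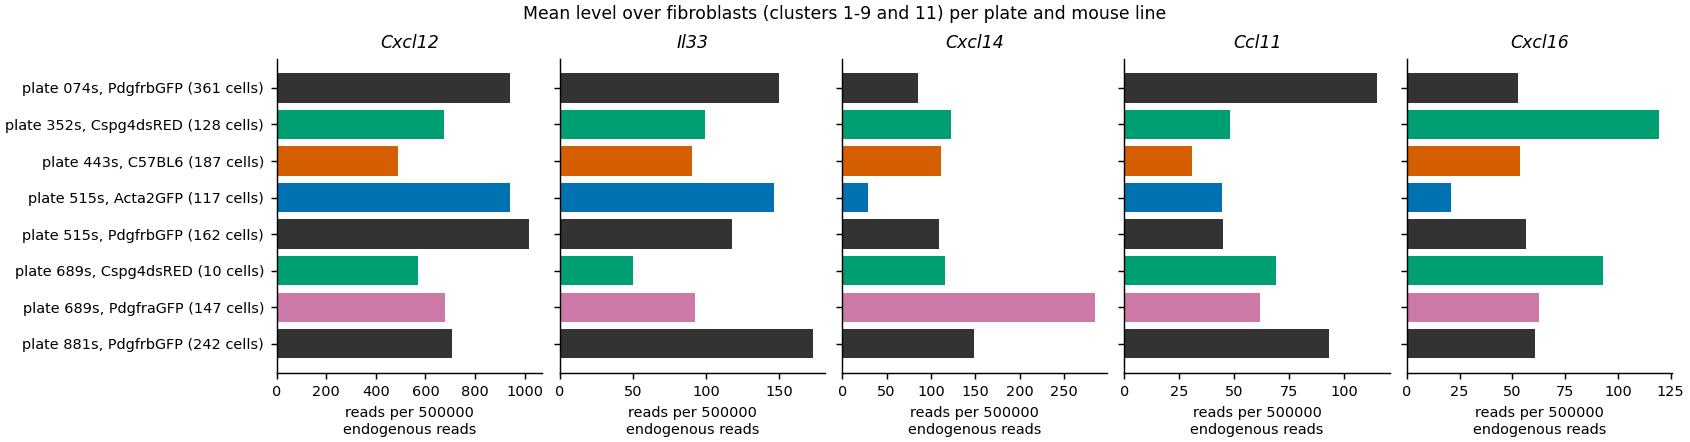
Mean level over fibroblasts (clusters 1 to 9 and 11) in each of the 8 combinations of plate and mouse line, as reads per 500000 endogenous reads on linear axes starting at 0, with bars coloured by line. Cxcl14 reached 284.7 in PdgfraGFP of plate 689s, and Cxcl16 reached 119.5 in Cspg4dsRED of plate 352s.

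The share of cells with a read was also set against the presence of high cells in the same row or column of the plate. For each gene the 74 highest cells (27 for Cxcl10, all its cells with a read) were set aside, and the remaining cells were grouped by how many of these shared their row or column. Pooled over the 6 plates, cells with none, with 1 or 2, and with 3 or more such cells had a Ccl11 read in 34.9%, 58.7% and 93.2%, a Cxcl14 read in 46.6%, 67.5% and 83.8%, and an Il33 read in 55.5%, 74.6% and 86.3%. For Cxcl1 these shares were 3.47%, 17.6% and 54.9%, for Il6 0.179%, 5.47% and 22.2%, and for Ccl2 0.715%, 1.51% and 17.7%. Between cells with none and with 3 or more, Cxcl16 went from 61.7% to 65.8%, Cxcl12 from 93.8% to 99.7% and Ccl7 from 0% to 4.08%. For Cxcl10 the 27 cells with a read were all in the set put aside, so nothing remained to compare.

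The plates themselves differed in these shares, so the pooled values mix differences between and within plates. For Cxcl14, cells without such a neighbour had a read in 12.7% on plate 352s and 81.5% on plate 881s. Within plates, the Cxcl14 share was higher in cells with at least 1 such neighbour on 6 of 6 plates, for example 30.7% against 12.7% on plate 352s, and so was the Cxcl16 share. Il33 was higher on 5 of the 5 plates that had both kinds of cell, Il6 on 4 of 5, and Cxcl1 and Ccl11 on 5 of 6. Ccl11 was the other way on plate 074s, at 95.9% against 100% in 11 cells without a neighbour, and close on plate 689s, at 35.6% against 32.8%. Cxcl1 was at 2.89% against 3.05% on plate 515s. Cxcl12 was higher on 2 of 5 plates, lower on 1 and equal on 2, and Ccl7 was higher on 2 of 6 plates and without a read in either kind of cell on 4. Ccl2 was higher on 2 plates, lower on 3 and without a read in either kind of cell on 1. The median count in the cells with 3 or more high neighbours was 7 reads for Cxcl14, 6 for Ccl11 and 13 for Il33. Shares after thinning were accordingly taken at 10 reads or more. At 1 read or more the Cxcl14 shares were 12.8% in mural cells and 44.5% in the other fibroblasts. The part of this pattern in the low counts was not tested.

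**Figure D5:**
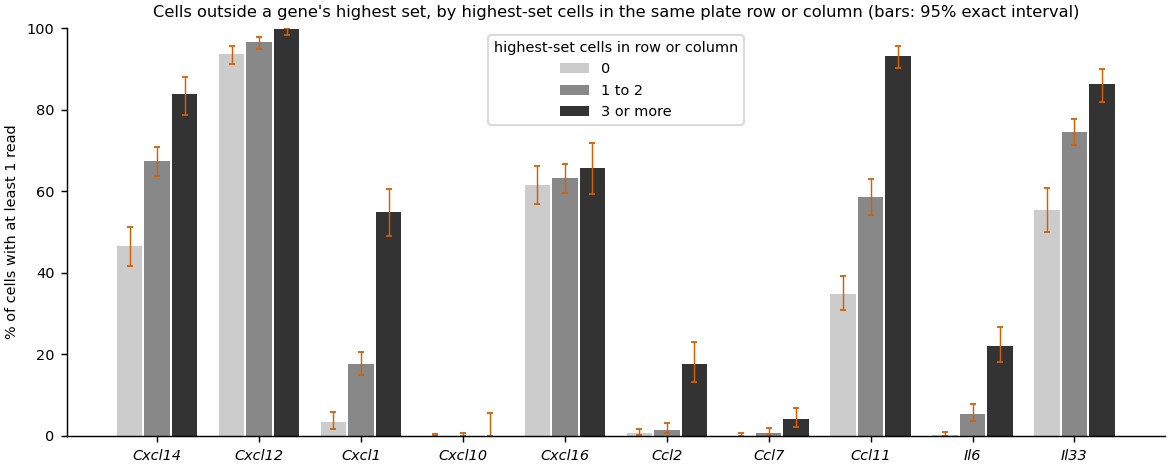
Percent of cells with at least 1 read of each gene, among cells outside the gene's 74 highest (27 for Cxcl10), by the number of those highest cells in the same plate row or column, with exact 95% intervals as bars. Pooled over plates that differed in their own shares, the percent went from 34.9% to 93.2% for Ccl11, from 3.47% to 54.9% for Cxcl1 and from 61.7% to 65.8% for Cxcl16.

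Genes that varied with the members from cell to cell were sought over 1338 thinned fibroblasts, cluster 5 included, within the 7 combinations of plate and line with at least 50 of them, among 9326 genes with a read in at least 10% of cells, as a mean Spearman correlation without a test. Cells of a combination share a plate, and depth was equal. Differences between clusters enter these values. Cxcl12 was most like Stc2 (0.413), Kcnn3 (0.403) and Dpep1 (0.389). Cxcl14 was most like Dkk2 (0.308), a WNT pathway modulator, Car3 (0.30002) and Slc14a1 (0.297), and Ccl11 was most like Gucy1a1 (0.310), Gpx3 (0.267) and Pla1a (0.248). Il33 had lower values with Cygb (0.241), Apod (0.236) and Prcd (0.230).

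The likeness of Cxcl16 (Gm26771 0.1627, Lgr5 0.158, Bmp5 0.152) and Cxcl1 (Ppp1r15a 0.141, Pop5 0.140, Irf1 0.136) was weak. Between the members themselves the highest values were 0.152 for Cxcl12 with Ccl11, 0.142 for Cxcl1 with Ccl7 and 0.133 for Cxcl12 with Il33, and the lowest was -0.080 for Cxcl14 with Il33. In sparse counts values of this size are a description only. Of the 10 highest cells of each gene, Ccl2 and Ccl7 shared 3, and Cxcl10 shared 2 with each of them.

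Of the 27 receptor genes listed, 24 had a read, 11 in at least 1% and 7 in at least 10% of cells. Over all cells, Cxcr4, the receptor of Cxcl12, had 3 reads, Cxcr6 had 11, the Il33 receptor Il1rl1 had 22, Cxcr3 had 1, Ccr2 had 16 and Ccr3, the eotaxin receptor, had 0. The scavenging receptors were different. Ackr3, which takes up CXCL12, had a mean level of 215.7 over all cells, and Ackr2, which takes up inflammatory CC chemokines, had 140.4 in the other fibroblasts, 2.51 in mural cells and 2.12 in cluster 5. Ackr2 was called lower in mural cells (log2 fold change -6.49) and in cluster 5 (-6.42), and Ackr3 lower in mural cells (-2.59, adjusted p = 0.034, edgeR). Il6st, the shared signalling chain for Il6, had 180.9 over all cells. Of the 27 receptor genes listed, 10 could be tested in mural cells, with 2 called lower and 0 higher by edgeR (median -2.01), and 11 in cluster 5, with 1 called lower (median -1.07). Over all genes tested, 4.02% were called lower in mural cells and 0.465% in cluster 5. At an unadjusted p under 0.05, 5 of the 10 and 4 of the 11 passed, against 22.1% and 13.2% of all genes. DESeq2 called 4 of these receptor genes in mural cells and 2 in cluster 5.

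Gene lists are set here beside all genes tested, of which 22.1% in mural cells and 13.2% in cluster 5 passed an unadjusted p of 0.05, with medians of -0.93 and -0.77. By edgeR, 6.2% and 0.762% of all genes were called in these classes. Of 19 other cytokines 12 were tested in each class. In mural cells Kitl, the ligand of KIT, was called higher (3.93, adjusted p = 0.0376, edgeR), and Tnfsf13b, a B-cell survival factor (-6.60, adjusted p = 0.0221), and Il15 (-6.08, adjusted p = 0.0449) were called lower, with a median of -4.34 for the list. At an unadjusted p under 0.05, 9 of the 12 passed in mural cells (22.1% of all genes), and DESeq2 called 9, while in cluster 5 edgeR called 0, 3 passed unadjusted (13.2% of all genes) and DESeq2 called 3. Il34, a ligand of the CSF1 receptor, had a mean level of 139.5 in mural cells and 13.5 over all cells, and it was not called there (log2 fold change 5.70, SE 1.77, adjusted p = 0.0573, edgeR). Of the 32 other chemokines, 8 had no read and 9 were tested in mural cells with 0 called by edgeR (median -3.03), 4 at an unadjusted p under 0.05 and 2 called by DESeq2. The highest of them, Cx3cl1 (8.93), Cxcl13 (5.11) and Ccl21a (3.93), lay far under Cxcl12, Cxcl14, Ccl11, Il33 and Cxcl16 in mean level over all cells, which is not corrected for gene length.

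Genes known to respond to the pathways that drive the inducible members were counted as well. Of 15 NF-kappaB feedback and response genes, Icam1 (-5.67, adjusted p = 0.003) and Vcam1 (-4.97, adjusted p = 0.009), both leukocyte adhesion molecules, were called lower in mural cells by edgeR. In cluster 5 edgeR called 0 genes of the list. At an unadjusted p under 0.05, 5 passed in mural cells (22.1% of all genes) and 2 in cluster 5, close to the 13.2% of all genes. DESeq2 called 6 and 3 of them. The medians of the list were -1.92 and -1.31 against -0.93 and -0.77 over all genes. Of 14 immediate-early genes, which respond quickly to stress and growth factors, Atf3 (2.32) and Zfp36 (2.16) were called higher in mural cells and Nr4a1 (-4.28) and Dusp1 (-3.15) lower in cluster 5, with medians of 0.66 and -2.41. At an unadjusted p under 0.05, 8 and 12 of the 14 passed in these classes, against 22.1% and 13.2% of all genes, and DESeq2 called 2 and 6. None of the interferon-response genes, 12 of 14 tested in mural cells and 14 in cluster 5, was called by edgeR (medians -2.09 and 0.07), while 5 and 0 passed an unadjusted p of 0.05, against 22.1% and 13.2% of all genes, and DESeq2 called 5 and 0. Of the 3 ligand-processing proteases, Dpp4, which trims CXCL12 and CXCL10, was called lower in mural cells (-6.25, adjusted p = 0.038, edgeR).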

How the data were processed

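The deposited table holds unnormalized counts of reads for 46517 genes and 92 ERCC spike-ins in 1479 cells. To make it, the authors trimmed adapters (trim galore), mapped 50-base single reads to GRCm38 (mm10) with TopHat2, dropped reads described as doublets with samtools and counted with featureCounts. The strand setting and annotation release are not given in the sources used here, so overlapping genes on opposite strands may share reads. Coordinates and exon lengths (union of isoforms) came from GENCODE M21, which covered 46005 gene rows, and promoters from RefSeq.

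Cells were grouped by the labels' line and cluster. The labels name no animal, so the independence of lines is an assumption. Sums of counts per line and class were tested on all genes with edgeR 4.0.16 (R 4.3.3), using TMM scaling, filterByExpr, the line as a block in the quasi-likelihood test and Benjamini-Hochberg adjustment. Sums of a line come from the same sorts of that line on 1 to 3 plates, and the block treats the line as their shared source. Median-of-ratios scaling, no filter, DESeq2 1.42.0, sums per plate and line, no block, the median gene at 0, thinned cells, cells without immune reads, other cluster sets and leaving out each line were the alternatives. Where an alternative left a line with under 3 cells in a class, as C57BL6 mural cells without immune reads, that line dropped out. Shares are exact Clopper-Pearson intervals and cover counting error only. Tests and scripts were tested on simulated data. Python 3.11.15, numpy 2.4.6, scipy 1.17.1, pandas 2.3.3 and matplotlib 3.10.9 were used.

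The members, gene lists and alternatives were chosen with earlier results of these data known. All 10 members were to be named in full, with the 3 genes most like each member that had a read in at least 10% of thinned fibroblasts, and from each list up to 3 called genes with the largest fold change and the 3 with the highest level. Genes of the receptor list named for being ligand partners, and Il34, were named after their values were seen.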

Additional observations from a re-analysis of the deposited data

Results flagged for a closer look

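In 11 of 40 groups of lines or of plate and line combinations, 1 value lay far from the rest by Dixon's criterion. Its nominal rate of about 1 in 20 groups assumes normally distributed values, which sparse counts are not. A group with reads in 1 line only meets the criterion by construction, as for Ccl2 and Cxcl10 in cluster 5 and Cxcl10 in mural cells. The 11 of 40 groups can thus not be read against that rate. In mural cells the C57BL6 line stood apart for Ccl11 (578.6, next 10.3) and for Cxcl1 (157.96, next 34.2), both resting on 1 of its 3 mural cells. The PdgfrbGFP line stood apart in mural cells for Ccl2 (0.586, next 0.0329) and Cxcl10 (2.70, next 0). In cluster 5 it stood apart for Ccl11 (6.19, next 1.04), Ccl2 (0.0562, next 0) and Cxcl10 (0.0368, next 0). Il6 in cluster 5 was 5.85 in C57BL6 and 0.293 in the next line. Cxcl1 in the other fibroblast clusters was 38.9 in Cspg4dsRED and 12.6 in the next line. Among the 8 combinations of plate and line, fibroblast Ccl2 was 7.61 in PdgfrbGFP of plate 074s (next 3.32), and fibroblast Cxcl14 was 284.7 in PdgfraGFP of plate 689s (next 148.4).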

How the results depend on the processing

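The 4 genes called in mural cells stayed within 3 to 6 over the alternatives and the 3 called in cluster 5 within 2 to 4. Over the mural results of single genes, 8 passed the threshold newly, 2 no longer passed it and 6 turned direction (1 of them by construction), and in cluster 5 these numbers were 5, 4 and 0. The turns concerned uncalled genes. Cxcl10 in mural cells went from -0.93 to 0.26 with DESeq2, to 0.00202 with the median gene at 0, which moves every gene by the same amount and fixes this turn, and to between -0.91 and 0.70 when a line was left out (0.70 without Acta2GFP). Ccl11 went from -2.54 to 1.65 without the replicate block. Cxcl1 went from 0.81 to -0.035 without cells with immune reads and to between -0.11 and 1.47 when a line was left out (-0.11 without C57BL6). Ccl11 in mural cells was called without cells with immune reads (-5.49, adjusted p = 0.019, edgeR), a fit that had no C57BL6 line.

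Shares of called genes moved more, given here as percent of all 46517 genes of the table, tested or not. In mural cells 2.14% were called, 6.45% with DESeq2, 5.26% with sums per plate and line, and 0.963% to 1.92% when a line was left out, lowest without Cspg4dsRED (1.197% without Acta2GFP and 1.10% without PdgfrbGFP). In cluster 5, 0.264% were called, 3.01% with DESeq2, 0.428% without a filter, 1.06% with sums per plate and line, 0.731% without the replicate block, 0.585% with thinned cells, and 0.187% to 0.445% when a line was left out, highest without Cspg4dsRED. With DESeq2, clusters 1, 2, 3, 6, 7, 8, 9 and 11 had 1.18%, 4.73%, 0.426%, 1.01%, 1.75%, 1.70%, 0.0043% and 0.0795% in place of 0.015%, 0.00215%, 0.00215%, 0.0086%, 0.144%, 0.00645%, 0.0129% and 0.00645%. With sums per plate and line, clusters 1, 2, 3, 6, 7, 8 and 11 had 0.0258%, 3.09%, 0.118%, 0.0838%, 0.709%, 0.0193% and 0.00215%. Without the replicate block, clusters 1, 4, 6, 8, 9 and 11 had 0% (cluster 4 had 0.219% with it) and cluster 2 had 0.714%. With median-of-ratios scaling clusters 1, 8, 9 and 11 had 0.0236%, 0.0172%, 0.00645% and 0.015%, and without a filter clusters 1, 3, 8 and 11 had 0.0279%, 0.0408%, 0.0516% and 0.015%. Leaving out a line gave 0.00645% to 0.0236% in cluster 1, 0% to 0.0086% in cluster 2, 0% in cluster 3, 0.00215% to 0.0172% in cluster 6, 0.0451% to 0.131% in cluster 7, 0% to 0.00645% in cluster 8 and 0% to 0.0473% in cluster 11 (highest without PdgfrbGFP).

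Of the members, DESeq2 called 2 in cluster 1, 1 in cluster 2 and 1 in cluster 6, where edgeR called 0, 5 in cluster 7 and 0 in cluster 4, where edgeR called 1 in each. Sums per plate and line called 2 in cluster 2 and 2 in cluster 7, and median-of-ratios scaling called 1 in cluster 11. Without the replicate block 0 were called in clusters 4 and 7. Leaving out a line gave 0 to 1 in clusters 7 and 11. Likeness between members reached 0.1 in 5 pairs with Spearman and 8 with Pearson correlation. The cause of these changes was not tested, except that fits with a line left out had fewer samples. Clusters 4 and 9 had 2 lines and could not be fitted with 1 left out.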
